A study of Mus musculus with 4 samples.

Results

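The genes described here are the cytokines, chemokines and their receptors on the array, in the B16-F10 mouse melanoma line. They were chosen by name, as the genes whose RefSeq mouse symbol starts with Ccl, Cxcl, Ccr, Cxcr, Csf or Il followed by a digit, or with Tnfsf or Tnfrsf. The rule gave 168 of the 20832 genes on the array, each read from the brightest of its probes, and used no value that compares the populations. The rule itself makes 1 exception by name. The name rule also takes in a few genes that are neither cytokine nor receptor, such as *Il4i1*, and leaves out cytokines with other names, such as *Lif* and *Tnf*, which were followed separately.

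B16-F10 is a pigmented line selected for metastasis, and its cells differ in how much of the Met receptor they carry at the surface. In this study the cells were stained for surface Met, sorted by flow cytometry into a Met-low and a Met-high population, and each population was grown on its own for 3 days before RNA was taken. All 4 samples were unmodified cells of the same line in the same medium, 2 independently prepared RNA samples of Met-low and 2 of Met-high cells, with 1 array each. The populations are gates on 1 line rather than clones, they hold no host cells by design, and the unsorted parental cells had no array here.

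Cytokines and chemokines are secreted proteins through which cells signal to one another, and most act at a receptor built from a ligand-binding chain and a shared signalling chain. Chemokines direct the migration of leukocytes through receptors coupled to G proteins, colony-stimulating factors and many interleukins signal through JAK kinases and STAT factors, and the TNF superfamily signals through TRAF adaptors to NF-kB. Melanoma cells are known to make some of these ligands and to carry some of the receptors, while most of the family is known from leukocytes.

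Most of these genes had no clear signal. A probe counts as well above background on an array where the scanner software gave its signal that mark. A gene was tested when this held on both arrays of Met-low or on both arrays of Met-high cells. By that rule 49 of the 168 genes were tested, or 29.2%, against 57.4% of all genes on the array (11958 of 20832). Among the 49 genes, 45 were well above background on all 4 arrays. The other 4 genes, *Csf2rb2*, *Il12rb2*, *Il9r* and *Il22*, were so on both arrays of Met-high and on 1 array of Met-low cells. A further 20 genes were well above background on some arrays without filling either population, and 99 were so on no array. No gene was well above background in both samples of one population and in none of the other.

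By family, all 5 colony-stimulating factor receptors were tested, as were 12 of 19 genes of the TNF receptor superfamily and 15 of 40 interleukin receptors. Among the ligands, those tested were 5 of 32 chemokine ligands, 5 of 38 interleukins, 3 of 11 TNF superfamily ligands and 1 of 3 colony-stimulating factors. Among the chemokine receptors, 2 of 17 were tested. These shares are a description of 1 probe per gene, and a probe that is not well above background does not show that the RNA was absent.

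**Figure D1:**
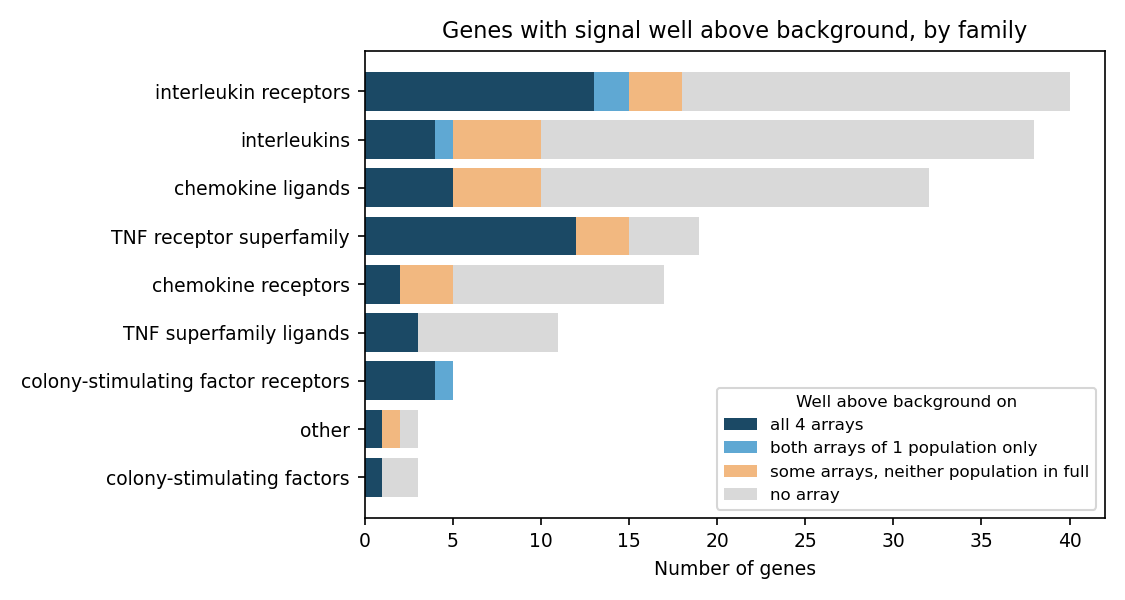
Number of genes in each family (x axis, genes) by the arrays on which the gene was well above background. Dark blue bars, all 4 arrays, are longest for the interleukin receptors (13 genes) and the TNF receptor superfamily (12 genes), and grey bars, no array, make up 28 of 38 interleukins and 22 of 32 chemokine ligands.

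Signal was measured as the log2 intensity of a probe minus the log2 of the 75th percentile over its array, so that 0 is the level of that percentile. The raw 75th percentiles were 942 and 1331 in Met-low and 858 and 1111 in Met-high samples, and 50.01% to 53.63% of spots were well above background. The slide was the same for all 4 arrays, with Met-low RNA at positions 1 and 2 and Met-high RNA at positions 3 and 4, and an effect of position cannot be told apart from one of population. Arrays of the same population correlated at 0.990 over genes, and the lowest correlation between any pair of arrays was 0.967. *Met*, the gene of the sorted receptor, read −0.26 and −0.89 in Met-low and 1.03 and −0.43 in Met-high samples, a log2 ratio of 0.87 (SE 0.51, limma adjusted p = 0.333) in which the populations overlapped. The melanocyte markers were well above background on all 4 arrays for 12 of 12 genes, and 1 of them, *Trpm1*, was higher in Met-high cells (limma adjusted p = 0.0156), a call lost with no filter on dim probes (0.105) and with the mean of all probes (0.111). Of 20 leukocyte markers, 18 had a probe, and 10 of these were well above background on no array, among them *Ptprc*, *Lyz2*, *Cd14* and *Tyrobp*. The other 6 tested, *Cd3e*, *Cd4*, *Itgam*, *Csf1r*, *Fcer1g* and *Coro1a*, were well above background on all 4 arrays. Of these 0 passed the threshold in limma, and at an unadjusted p under 0.05 *Coro1a* lay on the Met-high side (log2 ratio 1.41) and *Itgam* on the Met-low side (−0.65). The summed linear level of the leukocyte list, in units of the 75th percentile, was 7.69 and 8.73 in Met-low and 9.07 and 8.60 in Met-high samples, and *Csf1r* is counted in that list as well as here. Of 14 endothelial and fibroblast markers, 8 were well above background on no array, and 4 were tested. *Col1a2* was lower in Met-high cells (log2 ratio −1.10, limma adjusted p = 0.0311), a call lost with no filter on dim probes (0.158), without Met-low replicate 2 (0.0803) and without Met-high replicate 1 (0.0515), while *Kdr*, *Vwf* and *Pecam1* had ratios of 0.36, 0.42 and 0.07. The summed level of that list was 7.09 and 6.31 in Met-low and 8.99 and 7.24 in Met-high samples, and the part of these markers in the results below was not tested.

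In the comparison of Met-high with Met-low cells, 3 cytokine or receptor genes were lower in Met-high cells and 1 was higher at an adjusted p under 0.05. They were *Ccl5*, *Csf2ra* and *Il3ra* on the lower side and *Il4i1* on the higher side. Across all genes, limma called 690 genes (5.77%), of which 457 (3.82%) lay on the Met-low and 233 (1.95%) on the Met-high side, while the 4 called here are 8.16% of 49, split as 6.12% and 2.04%. At this number of genes, these shares are near the background and do not set the family apart. At an unadjusted p under 0.05, 9 of the 49 genes lay on the Met-high and 5 on the Met-low side, against 14.3% and 11.9% of all genes, and these shares are the background for the unadjusted counts given below. By the study's own criterion, a 2-fold difference of means with no test, 3 genes lay on each side. They were *Ccl5*, *Csf2ra* and *Il6ra* on the Met-low side and *Il4i1*, *Il9r* and *Il22* on the Met-high side. The shares of all genes were 5.29% and 2.43%. *Il9r* and *Il22* entered the test only through their Met-high arrays, so the filter favoured that side for them. Both Met-high samples lay above both Met-low samples for 16 genes (32.7% of those tested, against 35.8% of all genes), the reverse held for 9 (18.4% against 22.6%), and 24 overlapped. In RNA from whole cultures, fewer cells that express a gene and less RNA per cell cannot be told apart.

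The median log2 ratio (Met-high minus Met-low) over the 49 genes was 0.16, and over all genes tested it was 0.10. The mean was higher in Met-high cells for 36 genes and in Met-low cells for 13. The 36 include the 4 genes that were tested only through their Met-high arrays. With the filter for all 4 arrays the counts were 32 and 13. With the arrays scaled to the 75th percentile of detected probes, the counts of the 49 genes became 25 and 24. That scaling moved the median of all genes to −0.05 and of these genes to 0.01, and left the difference between both medians at 0.06. It also moved the share of all calls on the Met-high side from 33.8% to 19.4%. The 4 calls named above held under it. Each result was recomputed under 12 alternative settings, 8 of the processing and 4 that leave out 1 array each.

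**Figure D2:**
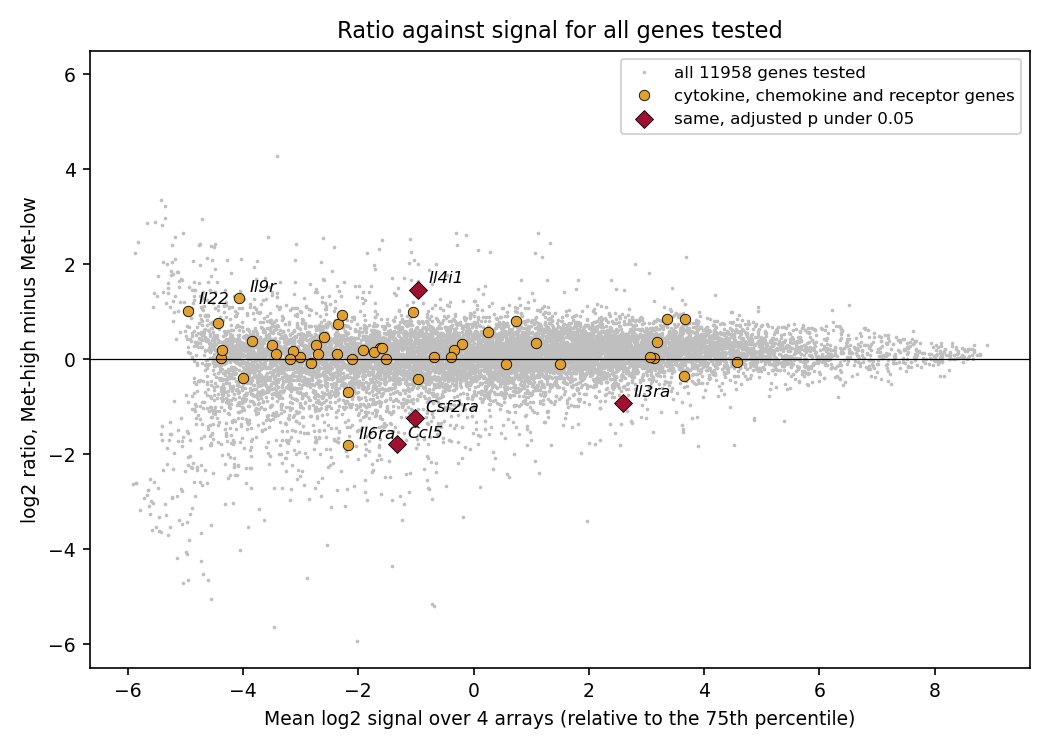
Log2 ratio (y axis, Met-high minus Met-low) against the mean log2 signal over the 4 arrays (x axis) for all 11958 genes tested (grey) and for the 49 cytokine, chemokine and receptor genes (orange, or red diamonds at an adjusted p under 0.05). Labels mark the 4 called genes, at −1.79, −1.23, −0.93 and 1.47, and 3 others with a ratio beyond 1 in either direction, and all lie within the spread of the grey points.

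The sequences before the start sites of the genes that the results turn on are shown first, for the stretches that the RefSeq promoter table holds, to place the genes in the genome. It has an entry for 128 of the 168 genes and for 39 of the 49 tested (48 entries in all). Each sequence is the 250 bases before the annotated start, on the strand of the gene, in build GRCm38.p6. Motifs searched on both strands are in capitals: the E-box in its forms CACGTG and CATGTG, the AP-1 site TGANTCA, the STAT site TTCNNNGAA, the interferon response element (GAAA, any 2 bases, and the same letters again) and the kappaB site. The first 3 sequences are those of *Csf2ra*, *Il3ra* and *Il4i1*, which passed the test, *Il6ra* had the lowest ratio of all 49 genes, and *Cxcl10* is the interferon-induced chemokine among them. They are *Csf2ra* at chr19:61228419-61228668 (minus strand), *Il3ra* at chr14:14346245-14346494 (plus strand), *Il4i1* at chr7:44836038-44836287 (plus strand), *Il6ra* at chr3:89913197-89913446 (minus strand) and *Cxcl10* at chr5:92348890-92349139 (minus strand).
Csf2ra: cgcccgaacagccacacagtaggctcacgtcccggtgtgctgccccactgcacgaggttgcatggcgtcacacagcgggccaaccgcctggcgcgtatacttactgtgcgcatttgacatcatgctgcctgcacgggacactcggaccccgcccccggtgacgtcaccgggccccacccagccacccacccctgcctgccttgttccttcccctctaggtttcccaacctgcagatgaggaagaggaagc
Il3ra: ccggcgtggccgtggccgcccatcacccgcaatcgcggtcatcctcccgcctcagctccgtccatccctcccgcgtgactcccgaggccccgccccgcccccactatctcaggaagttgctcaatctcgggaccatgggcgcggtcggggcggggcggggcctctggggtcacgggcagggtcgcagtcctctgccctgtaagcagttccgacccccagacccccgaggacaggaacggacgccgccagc
Il4i1: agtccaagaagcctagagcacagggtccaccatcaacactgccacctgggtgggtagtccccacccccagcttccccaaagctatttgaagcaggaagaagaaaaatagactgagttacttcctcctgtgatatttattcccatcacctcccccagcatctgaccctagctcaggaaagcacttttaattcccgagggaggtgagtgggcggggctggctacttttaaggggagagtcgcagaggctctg
Il6ra: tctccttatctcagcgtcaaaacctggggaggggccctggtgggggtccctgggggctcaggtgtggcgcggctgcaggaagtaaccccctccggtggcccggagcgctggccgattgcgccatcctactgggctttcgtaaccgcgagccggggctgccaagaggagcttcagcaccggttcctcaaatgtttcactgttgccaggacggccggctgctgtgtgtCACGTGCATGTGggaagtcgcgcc
Cxcl10: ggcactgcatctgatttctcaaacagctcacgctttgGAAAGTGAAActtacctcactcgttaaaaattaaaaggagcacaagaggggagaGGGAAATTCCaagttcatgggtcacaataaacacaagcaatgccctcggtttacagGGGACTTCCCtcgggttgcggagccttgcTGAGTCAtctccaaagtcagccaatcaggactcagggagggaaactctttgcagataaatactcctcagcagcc

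The first 3 sequences held none of the motifs. The *Il6ra* sequence held both E-box forms side by side, CACGTG from 24 to 19 and CATGTG from 18 to 13 bases before the start. The *Cxcl10* sequence held an interferon response element match from 213 bases before the start, a kappaB match from 159 and another from 103, and a TGANTCA match from 74. Of 32851 promoter entries of the same length, 6.02% hold CACGTG, 12.3% CATGTG, 6.75% TGANTCA, 7.02% TTCNNNGAA, 2.98% the interferon response element and 3.90% the kappaB site. In the 48 entries of the genes tested these shares were 6.25%, 8.33%, 8.33%, 12.5%, 6.25% and 6.25%, or 3 to 6 entries each. A match is a description of the letters and not a site of binding.

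*Ccl5* encodes a chemokine that draws T cells, monocytes and eosinophils. Its signal was −0.57 and −0.30 in Met-low and −2.65 and −1.80 in Met-high samples (means −0.43 ± 0.19 and −2.23 ± 0.60, SD, n = 2 each). Both Met-high samples lay below both Met-low samples, and the Met-high samples differed from each other by more than the Met-low samples did. The log2 ratio was −1.79 (SE 0.31, limma adjusted p = 0.0395), which is 3.46-fold lower in Met-high cells. *Ccl5* has 1 probe on the array and overlaps the predicted gene *Gm32650*. The call was lost under quantile normalization (log2 ratio −1.74, adjusted p = 0.0579) and with no filter on dim probes (adjusted p = 0.170), and it held with any 1 array left out. *Ccr1* and *Ccr3*, which bind this chemokine, were well above background on no array.

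Of the other chemokine ligands, *Cxcl10*, induced by interferon and acting on *Cxcr3*, read −1.44 and −1.64 in Met-low and −0.30 and −0.80 in Met-high samples. The Met-high samples lay above the Met-low samples. The log2 ratio of 0.99 (SE 0.23) did not pass the threshold in limma (adjusted p = 0.0707, from 0.0268 to 0.259 over the alternatives), and it passed without Met-high replicate 2. *Cxcl10* lies within *Art3* in the RefSeq annotation. Its receptor *Cxcr3* read 0.48 and 0.18 in Met-low and 1.21 and 1.07 in Met-high samples, again without overlap, with a log2 ratio of 0.81 (SE 0.18, limma adjusted p = 0.0696). Neither gene is therefore called, and both were chosen for the text after their values were seen, apart from the rule for named genes.

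The rest of the chemokine system gave few values. The other ligands tested, *Ccl19*, *Ccl25* and *Ccl27a*, were well above background on all 4 arrays with log2 ratios of 0.12, −0.09 and 0.05, in which the populations overlapped. The probes of *Ccl25* and of *Ccl27a* differed in sign, and *Ccl27a* overlaps *Il11ra1*. The other probes of *Ccl19* did not pass the filter. *Ccr8*, a receptor known from regulatory T cells, was the other chemokine receptor tested (log2 ratio 0.17, limma adjusted p = 0.774). Another probe of *Ccr8* was well above background on no array, and the ratio of the gene changed sign with the mean of all probes. *Ccl2*, *Ccl24*, *Ccl28*, *Cxcl5* and *Cxcl17* and the receptors *Ccr6*, *Ccr9* and *Cxcr2* were well above background on some arrays only. *Cxcr4* and its ligand *Cxcl12*, and the neutrophil chemokines *Cxcl1* and *Cxcl2*, were among the 12 receptors and 22 ligands that were so on no array.

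The colony-stimulating factor receptors were the family with every member tested. *Csf2ra*, the chain that binds granulocyte-macrophage colony-stimulating factor, read −0.36 and −0.43 in Met-low and −1.72 and −1.54 in Met-high samples (means −0.40 ± 0.05 and −1.63 ± 0.13, SD, n = 2 each). The samples of each population lay close together and the populations were well apart. The log2 ratio was −1.23 (SE 0.16, limma adjusted p = 0.0208), 2.35-fold lower in Met-high cells. The call was lost only with no filter on dim probes (adjusted p = 0.121), and over the alternatives the ratio ran from −1.38 to −1.09. *Csf2ra* has 1 probe on the array.

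*Csf2ra* signals together with *Csf2rb*, the beta chain that it shares with the receptors of interleukins 3 and 5. *Csf2rb* read −4.32 and −4.50 in Met-low and −4.51 and −4.23 in Met-high samples, with overlap and a log2 ratio of 0.04 (SE 0.18, limma adjusted p = 0.919). The lowest signals that counted as well above background were −4.59 and −5.01 in Met-low and −4.96 and −5.25 in Met-high samples. *Csf2rb* lay near these, so that its ratio does not show that the gene was unchanged. The mouse has a second beta chain, *Csf2rb2*, that serves interleukin 3 alone. It read −5.06 and −4.56 in Met-low and −3.95 and −4.15 in Met-high samples, with a log2 ratio of 0.77 (SE 0.22, limma adjusted p = 0.115), and it was well above background on 1 array of Met-low cells. The beta chains are closely similar copies of 1 ancestral gene, so that a probe of one may read RNA of the other, and the second probe of each did not rise well above background on any array. The sign for *Csf2rb* turned under 4 alternatives.

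*Csf1r* and *Csf3r*, the receptors of the macrophage and granulocyte factors, are described because their probes were among the 10 with the highest mean signal, which ranks probes and not amounts of RNA. *Csf1r* read 0.96 and 0.86 in Met-low and 1.43 and 1.09 in Met-high samples (log2 ratio 0.35, SE 0.19, limma adjusted p = 0.300), and a further probe of the gene gave −0.11. *Csf3r* read 4.28 and 4.91 in Met-low and 4.49 and 4.59 in Met-high samples (log2 ratio −0.05, SE 0.25, limma adjusted p = 0.912), with the Met-high samples between the Met-low samples. Of the ligands, *Csf1* was the 1 tested, at −0.63 and −0.87 in Met-low and −1.06 and −1.27 in Met-high samples (log2 ratio −0.42, SE 0.18, limma adjusted p = 0.220). *Csf2* and *Csf3* were well above background on no array, as was *Il34*, the other ligand of *Csf1r*.

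**Figure D3:**
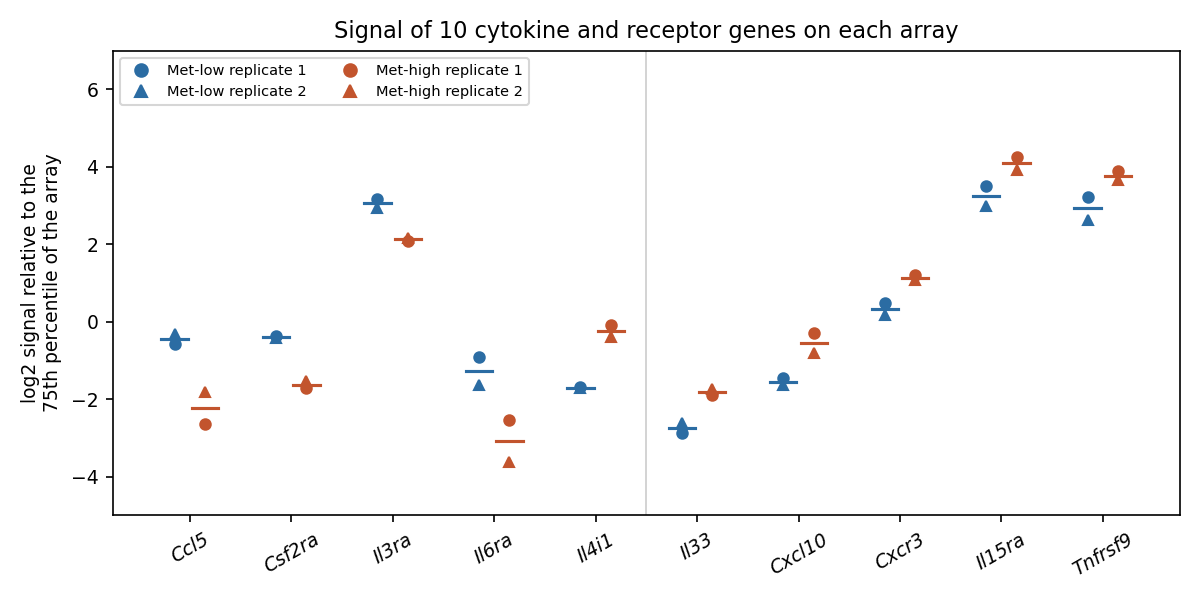
Log2 signal relative to the 75th percentile of the array (y axis) for 10 genes in each of the 2 Met-low (blue) and 2 Met-high (orange) samples, with circles for replicate 1, triangles for replicate 2 and a bar at the mean. To the left of the grey line are the 4 genes at an adjusted p under 0.05 and *Il6ra*, to the right 5 genes higher in both Met-high samples that did not pass, and levels are not comparable between genes.

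Among the interleukin receptors, *Il3ra* was called. It encodes the chain that binds interleukin 3, and it pairs with the beta chains above. It read 3.18 and 2.94 in Met-low and 2.10 and 2.17 in Met-high samples (means 3.06 ± 0.17 and 2.13 ± 0.05, SD, n = 2 each). Both Met-high samples lay below both Met-low samples. The log2 ratio was −0.93 (SE 0.17, limma adjusted p = 0.0445), 1.90-fold lower in Met-high cells. The call was close to the threshold and was lost with any 1 of the 4 arrays left out (adjusted p from 0.0607 to 0.155), with no filter on dim probes (0.2001) and with the mean of all probes of each gene (0.0520), while the ratio stayed between −1.07 and −0.81. *Il3*, *Il5* and *Il5ra* were well above background on no array.

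*Il6ra*, the chain that binds interleukin 6, had the lowest ratio of the 49 genes without passing the test. It read −0.91 and −1.64 in Met-low and −2.54 and −3.61 in Met-high samples, so that the populations were apart while the samples within each population also differed from each other. The log2 ratio was −1.80 (SE 0.43, limma adjusted p = 0.0765). It passed without Met-low replicate 2 (−2.17, adjusted p = 0.0194) and without Met-high replicate 1 (−2.34, adjusted p = 0.00427), and did not pass without either of the other arrays. Its signalling partner *Il6st*, the chain shared by the whole interleukin 6 family, read −0.15 and −0.67 in Met-low and −0.28 and −0.46 in Met-high samples (log2 ratio 0.04, SE 0.23, limma adjusted p = 0.920). *Il6* itself was well above background on no array.

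Several interleukin receptors were well above background on all 4 arrays and did not pass the test. *Il15ra*, which presents interleukin 15 to neighbouring cells, read 3.51 and 2.99 in Met-low and 4.26 and 3.92 in Met-high samples (log2 ratio 0.84, SE 0.24, limma adjusted p = 0.114), with the Met-high samples above the Met-low samples. Another probe of *Il15ra* was well above background on no array. *Il15* was well above background on some arrays only, and the partner chains *Il2rb* and *Il2rg* on none. *Il11ra1*, *Il17rc* and *Il10rb*, which bind interleukin 11 and serve the interleukin 17 and interleukin 10 families, had ratios of 0.05, 0.37 and −0.09. *Il11*, *Il17a*, *Il17c* and the chain *Il10ra* were well above background on no array, and *Il17f* and *Il17re* on some.

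*Il4ra*, which binds interleukins 4 and 13, read −2.51 and −2.93 in Met-low and −1.88 and −2.08 in Met-high samples (log2 ratio 0.74, SE 0.21, limma adjusted p = 0.109) and was chosen for the text after its values were seen. Another probe of *Il4ra* was well above background on no array, and the same held for another probe of *Il9r*. *Il9r*, likewise chosen after its values were seen, had the highest ratio among the interleukin receptors, 1.29 (SE 0.86, limma adjusted p = 0.391), and that value rests on 1 array. It read −4.68 and −4.75 in Met-low and −4.81 and −2.05 in Met-high samples. Without Met-high replicate 1 the ratio was 2.67 and passed the test, and without Met-high replicate 2 it was −0.09. The 11 interleukin receptors with a higher mean in Met-high cells and the 4 with a lower mean became 6 and 9 with the arrays scaled to detected probes. The 11 include *Il12rb2* and *Il9r*, which were tested only through their Met-high arrays.

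Interleukins themselves gave 5 genes tested and 0 past the threshold in limma, with 2 on the Met-high side and 1 on the Met-low side at an unadjusted p under 0.05 (14.3% and 11.9% of all genes). *Il33*, an alarmin of the interleukin 1 family that resides in the nucleus, read −2.86 and −2.61 in Met-low and −1.90 and −1.73 in Met-high samples. The populations did not overlap, and the log2 ratio of 0.92 (SE 0.18) narrowly missed the threshold (limma adjusted p = 0.0502, from 0.0435 to 0.214 over the alternatives). It passed under quantile normalization and with only genes well above background on all 4 arrays. Its receptor *Il1rl1* was well above background on no array, and the accessory chain *Il1rap* had a log2 ratio of −0.40 (SE 0.18, limma adjusted p = 0.227).

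*Il18*, another cytokine of the interleukin 1 family, read −1.91 and −1.75 in Met-low and −2.69 and −2.34 in Met-high samples (log2 ratio −0.69, SE 0.19, limma adjusted p = 0.106), and both chains of its receptor, *Il18r1* and *Il18rap*, were well above background on no array. *Il17d* read 0.10 and −0.19 in Met-low and 0.65 and 0.42 in Met-high samples (log2 ratio 0.57, SE 0.19, limma adjusted p = 0.142). *Il27* had a ratio of 0.23. *Il22* had one of 1.02 with a SE of 0.92, in which Met-low replicate 1 at −6.86 stood apart from the other samples, so that the ratio was −0.37 without that array and 2.42, past the threshold, without Met-low replicate 2. *Il33*, *Il18*, *Il17d* and *Il22* were also chosen for the text after their values were seen. *Il1a*, *Il1b*, *Il6* and *Il10* were among 28 interleukins that were well above background on no array.

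*Il4i1* was the gene called higher in Met-high cells. Despite its name it encodes neither a cytokine nor a receptor but a secreted enzyme that oxidises amino acids such as phenylalanine, first known as a gene induced by interleukin 4. It read −1.69 and −1.71 in Met-low and −0.07 and −0.40 in Met-high samples (means −1.70 ± 0.01 and −0.24 ± 0.23, SD, n = 2 each). The Met-low samples were almost equal and both Met-high samples lay above them. The log2 ratio was 1.47 (SE 0.18, limma adjusted p = 0.0181), 2.76-fold higher in Met-high cells. The call was lost only with no filter on dim probes (adjusted p = 0.109), and over the alternatives the ratio ran from 1.30 to 1.63. *Il4i1* overlaps *Il4i1b* and *Tbc1d17* in the RefSeq annotation, and since the position of its single probe was not analysed here, RNA of the overlapping genes cannot be told apart from its own.

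The TNF receptor superfamily had 12 genes tested and 0 past the threshold in limma, with 1 on the Met-high and 0 on the Met-low side at an unadjusted p under 0.05 (14.3% and 11.9% of all genes). *Tnfrsf9*, a costimulatory receptor of T cells, read 3.22 and 2.64 in Met-low and 3.89 and 3.65 in Met-high samples (log2 ratio 0.84, SE 0.25, limma adjusted p = 0.117), with the Met-high samples above the Met-low samples. *Tnfrsf9* ran from 0.30 to 1.13 in ratio over the alternatives, and another of its probes was well above background on no array. Its ligand *Tnfsf9* read −0.49 and −0.39 in Met-low and −0.19 and −0.29 in Met-high samples (log2 ratio 0.21, SE 0.16, limma adjusted p = 0.445). *Tnfrsf12a*, the receptor of the ligand *Tnfsf12*, read 3.75 and 3.91 in Met-low and 3.42 and 3.53 in Met-high samples (log2 ratio −0.36, SE 0.16, limma adjusted p = 0.239). *Tnfsf12* had a ratio of 0.33 (SE 0.29, limma adjusted p = 0.508) and overlaps *Tnfsfm13*, a readthrough gene that is also in the set.

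*Tnfrsf1a*, the main receptor of TNF, read 3.32 and 2.91 in Met-low and 3.25 and 3.05 in Met-high samples, a log2 ratio of 0.04 (SE 0.21, limma adjusted p = 0.929) with the Met-high samples between the Met-low samples. The other TNF receptor gene, *Tnfrsf1b*, was well above background on no array. The remaining receptors tested were *Tnfrsf4*, *Tnfrsf11a*, *Tnfrsf13b*, *Tnfrsf14*, *Tnfrsf18*, *Tnfrsf19*, *Tnfrsf22*, *Tnfrsf23* and *Tnfrsf25*, with ratios between −0.07 and 0.47. Of the 12 receptors, 10 had their higher mean in Met-high cells, and with scaling to detected probes 7 did. Of the ligands, 3 were tested with 0 past the threshold in limma and 0 at an unadjusted p under 0.05, and the other 8, among them *Tnfsf10*, *Tnfsf11* and *Tnfsf14*, were well above background on no array.

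**Figure D4:**
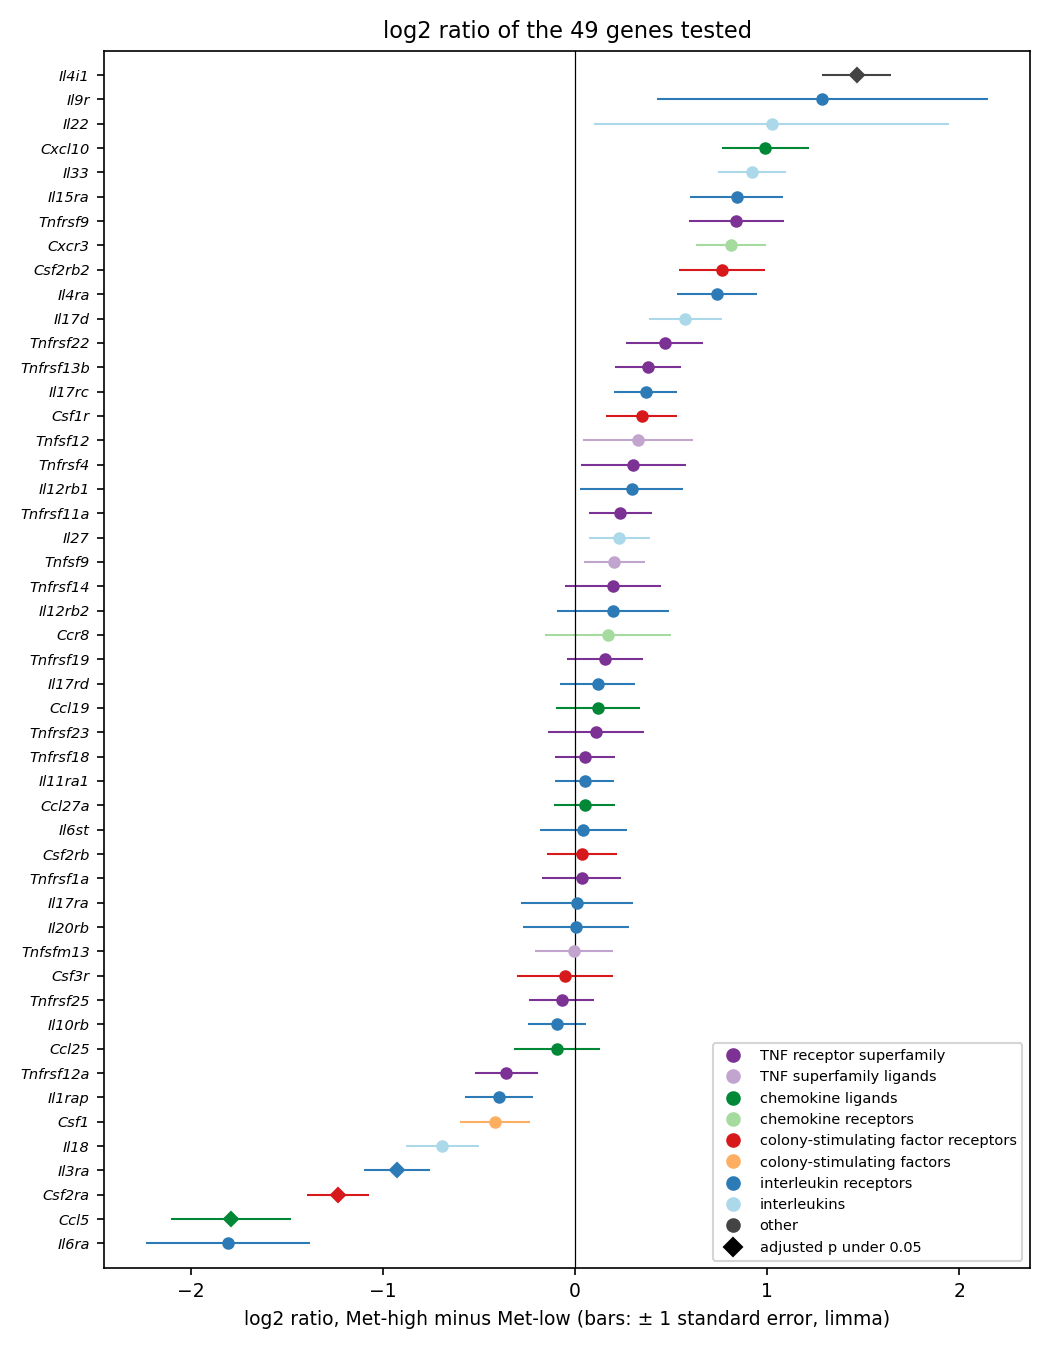
Log2 ratio (x axis, Met-high minus Met-low) of each of the 49 genes tested, sorted by the ratio and coloured by family, with bars of 1 standard error either side from limma and diamonds for an adjusted p under 0.05. The 4 called genes lie at −1.79, −1.23, −0.93 and 1.47, and *Il9r* and *Il22* have the widest bars.

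Genes that carry the same signals but have other names were followed in 4 lists. Of 41 further cytokines and receptors, 17 were tested, and 3 were higher in Met-high cells and 0 lower in limma (8 higher and 0 lower at an unadjusted p under 0.05), against 1.95% and 3.82% of all genes at the threshold and 14.3% and 11.9% at the unadjusted p. The median log2 ratio of those tested was 0.46, against 0.10 for all genes, and it was 0.29 with normexp background correction and 0.32 with scaling to detected probes. *Sigirr*, a receptor that dampens interleukin 1 and Toll-like receptor signalling, read −2.21 and −1.75 in Met-low and −0.09 and 0.16 in Met-high samples (log2 ratio 2.02, SE 0.22, limma adjusted p = 0.0136). *Ctf1*, a cytokine of the interleukin 6 family, read −3.14 and −2.51 in Met-low and −1.43 and −1.13 in Met-high samples (log2 ratio 1.54, SE 0.26, limma adjusted p = 0.0378). *Lifr*, the receptor chain that *Ctf1* uses with *Il6st*, read −3.62 and −3.47 in Met-low and −2.52 and −2.67 in Met-high samples (log2 ratio 0.94, SE 0.16, limma adjusted p = 0.0397). The populations did not overlap for any of the 3 genes. The call of *Lifr* was lost in 8 of 12 alternatives, and those of *Sigirr* and *Ctf1* with no filter on dim probes only.

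Of 24 chemokine pathway genes outside the name rule, 11 were tested, with 1 higher and 1 lower in Met-high cells at the threshold in limma. At an unadjusted p under 0.05, 3 lay on the Met-high and 1 on the Met-low side. The shares of all genes were 1.95% and 3.82% at the threshold and 14.3% and 11.9% at the unadjusted p. The median ratio was 0.14, and it was −0.0042 with scaling to detected probes. *Arrb2*, an arrestin that takes chemokine receptors off the surface, read −2.66 and −2.38 in Met-low and −1.09 and −1.11 in Met-high samples (log2 ratio 1.41, SE 0.17, limma adjusted p = 0.0181). *Rgs16*, which shortens the signal of the G proteins below these receptors, read −2.19 and −1.96 in Met-low and −4.75 and −4.13 in Met-high samples (log2 ratio −2.36, SE 0.25, limma adjusted p = 0.0129). Both genes had samples that did not overlap, and both calls were lost only with no filter on dim probes. The ratio of *Rgs16* ran from −2.67 to −1.37 over the alternatives. Its signal in Met-high replicate 1 lay near −4.96, the lowest on that array that counted as well above background.

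The lists of JAK-STAT and NF-kB pathway genes gave no call. Of 25 JAK-STAT and SOCS genes, 22 were tested with 0 past the threshold in limma (3 on the Met-high and 1 on the Met-low side at an unadjusted p under 0.05) and a median ratio of 0.10, the same as that of all genes. Of 35 genes of NF-kB, the TRAF proteins and the interleukin 1 receptor adaptors, 28 were tested with 0 past the threshold in limma (4 on the Met-high and 0 on the Met-low side at an unadjusted p under 0.05) and a median ratio of 0.02. For 8 housekeeping genes 0 passed in limma, also at an unadjusted p under 0.05, and their median was 0.12.

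**Figure D5:**
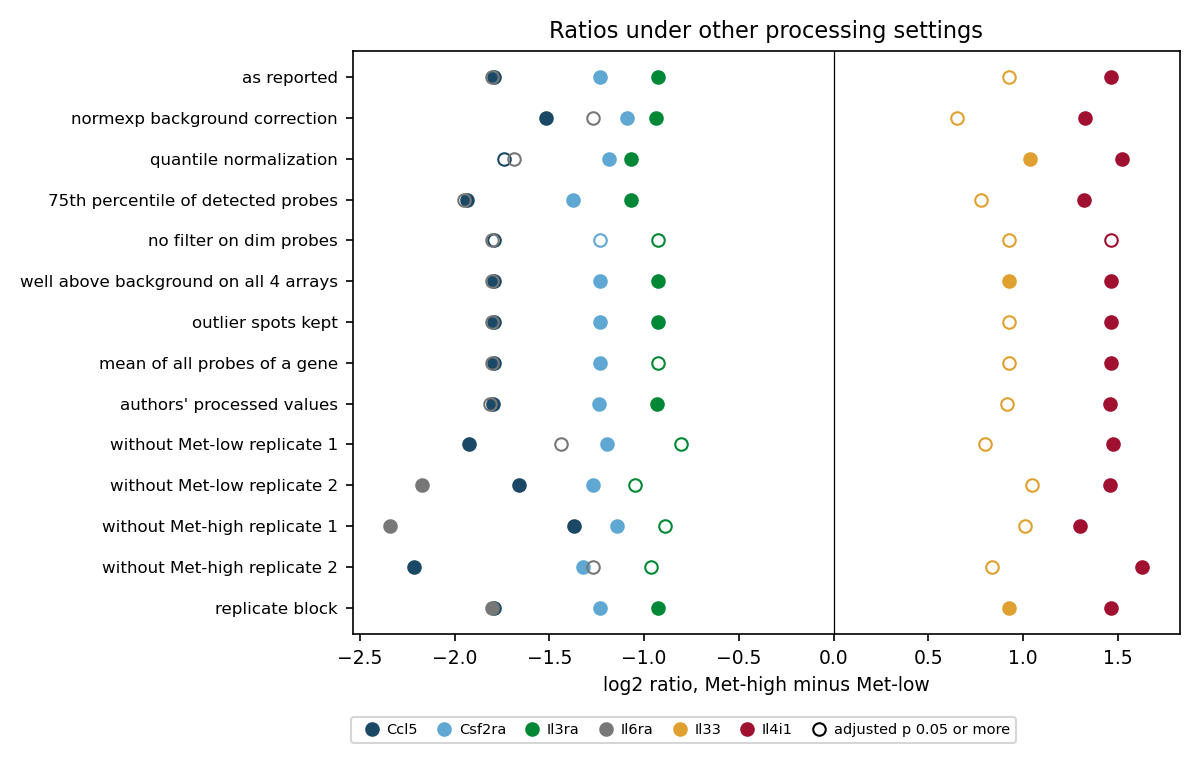
Log2 ratio (x axis, Met-high minus Met-low) of 6 genes under the settings reported here and each alternative (y axis), filled where the adjusted p was under 0.05 and open where it was not. *Il4i1* and *Csf2ra* are open in 1 line, no filter on dim probes, *Il3ra* is open in 6 lines that include each array left out, and no gene changes side of 0.

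The plot of ratios by setting shows how the calls moved with the processing. Of the 49 genes tested, 24 had a single probe and 25 had more than 1, of which 10 had more than 1 that passed the filter. With the mean of all probes of each gene, the mean lay on the Met-high side for 33 genes and on the Met-low side for 16. The genes at an unadjusted limma p under 0.05 went from 9 to 5 on the Met-high and from 5 to 6 on the Met-low side. Across all genes these counts went from 1715 to 1579 and from 1421 to 1412, with 11958 and 11968 genes tested. In 4 of these 10 genes, *Ccl25*, *Ccl27a*, *Csf1r* and *Il12rb1*, the probes gave ratios of opposite sign, and none of the 4 was called.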

How the data were processed

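Total RNA of sorted and cultured Met-low and Met-high cells was labelled with Cy3 and hybridised to Agilent mouse arrays of 1 colour, with 2 arrays per population. Per the labels the samples of a population are replicates, and the methods describe the RNA samples as independent. The authors deposited, for each array, the output of Feature Extraction (version 11.0.1.1 in the file headers, 10.7.3.1 in the submitters' notes), in which the processed signal is a background-corrected intensity on a linear scale. They also deposited a table of log2 values made with GeneSpring GX 11.5, which held the same intensities scaled by each array's 75th percentile and centred on the median of each probe. The slopes against the scanner values were 0.999 to 1.001, with 93.0% to 99.5% of probes within 0.01, and any effect of the Lowess step named in the methods was not visible there.

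The log2 intensity was scaled by subtracting the log2 of the 75th percentile of the 43020 spots that are not controls. Spots with an outlier mark (207 to 232 per array) were left out, 0 were saturated and 0 fell under the floor of 0.01. Spots of a probe were averaged. Accessions of 27427 of 39429 probes matched a RefSeq symbol (GRCm38.p6), and 12002 probes stayed unnamed and out of the counts. The brightest probe stood for a gene. Genes detected (well above background on both arrays of either population) were fitted with limma 3.58.1 (lmFit and eBayes, R 4.3.3), two-sided, with Benjamini-Hochberg adjustment over all 11958 genes and a threshold of 0.05. Of these genes, 11 lacked a value on an array, none of them described here. With 2 arrays per population an exact permutation of single values cannot reach the threshold and was not used, and the number of arrays limits the precision of every value.

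The set of genes and all lists were chosen with earlier results of these data known, so that no list is an independent test. The rule named genes at an adjusted p under 0.05, genes with a 2-fold difference and no overlap, the 10 brightest, and the ligands, receptors and partner chains of these. All other genes given with a value were chosen after the values were seen. A gene that the rule leaves out by exception is not reported here. The alternatives were normexp background correction (offset 50, on median intensities because the files hold no mean), quantile normalization, the 75th percentile over detected probes, no filter on dim probes, a filter for all 4 arrays, outlier spots kept, the mean of all probes, the authors' log2 table, each array left out, and the replicate number as a block. The fit was also run on simulated data in which 200 of 11947 genes were changed. Variances were drawn at random from those of the real genes, and the arrays varied independently. In the real data same-numbered samples deviated together (correlation 0.54), which the simulation leaves out. The fit recovered 50 of 100 genes changed by a log2 ratio of 1.5 and 87 of 100 changed by 3. It also called 5 unchanged genes. A gene that did not pass is therefore not shown to be unchanged.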

Additional observations from a re-analysis of the deposited data

How the results depend on the processing

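Of the 12 alternatives that do not pair the samples, the filter mattered most. With no filter on dim probes 20832 genes were tested, limma called 7 genes on the Met-low and 0 on the Met-high side (1463 and 1197 at an unadjusted p under 0.05), and the cytokine, chemokine and receptor genes gave 0 and 0 calls (8 and 10 at an unadjusted p under 0.05), as did the signalling lists (0 and 0). The number of these genes called higher in Met-high cells was 2 under quantile normalization and 2 with genes well above background on all 4 arrays, where *Il33* joined *Il4i1*. Scaling to detected probes left 143 genes of the whole table called higher in Met-high cells. A lone array was taken to vary like the other population when 1 array was left out. Then 437 to 604 genes were called on the Met-low and 155 to 264 on the Met-high side, the cytokine, chemokine and receptor genes gave 2 to 3 and 1 to 2 calls, the signalling lists 1 and 3 to 4, and the ratio of *Met* ran from 0.14 to 1.61, passing the threshold without Met-high replicate 2 (adjusted p = 0.0196). The fewest genes, 155, came without Met-low replicate 1.

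Among the genes followed through every alternative, ratios that changed sign were those near 0, together with *Il12rb1*, *Il22* and *Il9r*, and none of these genes was called. Under detected-probe scaling 11 of the 49 ratios changed sign, those of *Ccl19*, *Il17rd*, *Il20rb*, *Tnfrsf18* and *Tnfrsf23* and of 6 genes with ratios that became −0.095 for *Ccl27a*, −0.11 for *Csf2rb*, −0.095 for *Il11ra1*, −0.13 for *Il17ra*, −0.10 for *Il6st* and −0.11 for *Tnfrsf1a*. Quantile normalization gave −0.10 for *Il11ra1* and −0.11 for *Tnfrsf1a*. The mean of all probes gave 0.018 for *Ccl25*, −0.082 for *Csf2rb* and −0.30 for *Il12rb1*. With 1 array left out, the ratio ran from −0.30 to 0.11 for *Ccl25*, −0.013 to 0.11 for *Ccl27a*, −0.11 to 0.18 for *Csf2rb*, −0.37 to 0.26 for *Csf3r*, −0.049 to 0.64 for *Il12rb1*, −0.33 to 0.35 for *Il17ra*, −0.22 to 0.30 for *Il6st* and −0.17 to 0.24 for *Tnfrsf1a*. It ran from −0.37 (without Met-low replicate 1) to 2.42 for *Il22*, which passed the threshold without Met-low replicate 2 (adjusted p = 0.00937), and from −0.094 (without Met-high replicate 2) to 2.67 for *Il9r*, which passed without Met-high replicate 1 (adjusted p = 0.000631). Over all 49 genes, the signs that changed numbered 4 under quantile normalization, 5 with the mean of all probes, 1 with the authors' values, 5 to 9 with 1 array left out and 0 under the settings not named here (of 45 genes with the filter for all 4 arrays). The cause of these changes was not tested.

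The labels number the samples 1 and 2 in each population without saying that a number marks a shared preparation, and with 2 numbers the data cannot settle it. Deviations of same-numbered samples correlated at 0.54 over genes. With the replicate number as a block, limma called 1580 genes on the Met-low and 1976 on the Met-high side, of 11958 tested. It called 6 and 9 of the 49 cytokine, chemokine and receptor genes. In the 4 signalling lists, with 11, 22, 28 and 17 genes tested, it called 2 and 18. The calls among all genes are the background for these counts. *Met* was called at 0.87 (limma adjusted p = 0.04998). The 4 genes called without the block were among the 6 and 9. A block for slide or scan could not be fitted, since there was 1 slide and 1 scan.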
